A study of Mus musculus with 30 samples.

Results

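The RNA-seq values of the second interval of the differentiation course, from 24 to 36 h after 2i/LIF withdrawal, were compared gene by gene. A gene entered the comparison when its value was at least 1 FPKM (fragments mapped per kilobase of transcript, scaled to the size of the library) at 24 h or at 36 h, which 12454 of the 22477 genes in the deposited table did (55.4%). The cells were dox-inducible secondary mouse iPSCs, that is pluripotent cells derived by reprogramming. They still carried the OSKM transgenes (Oct4, Sox2, Klf4 and Myc) under doxycycline control. A GFP reporter took the place of 1 Nanog allele, so that 1 intact allele remained, and every cell had nuclear RFP. All cells of the time course carried these alleles and none of the timepoints received dox. They were maintained on feeders, a layer of mouse embryonic fibroblasts, in serum with LIF. For the colony-forming assay the methods describe a change to serum-free N2B27 with LIF and 2i (the GSK3 inhibitor CHIR99021 and the MEK inhibitor PD0325901), seeding on gelatin and then N2B27 with neither 2i nor LIF, while the surface on which the cells for RNA-seq grew is not given there. By their labels the 24 h and 36 h groups differed only in the time without 2i/LIF, and the labels do not give harvest, library or sequencing batches. Each had 2 replicates, so that 4 of the 30 samples and 2 of the 15 conditions of the series were compared. The study's reporting summary describes replicates as biological, and the labels add nothing on separate cultures.

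LIF signals through the receptor subunits Lifr and Il6st to Stat3, and 2i removes the differentiation signal of Fgf4 through MEK and ERK while it stabilises beta-catenin. Together they hold mouse pluripotent cells in a naive state that resembles the epiblast before implantation. When they are withdrawn, the cells pass through a formative state, in which the general pluripotency factors Pou5f1 and Sox2 are still expressed, the naive factors are lost and genes of the epiblast after implantation come on.

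Both replicates of a condition are combined in 1 value, so that every value below stands without a spread, and a difference cannot be set against the variation between replicates. The words rose and fell are used only for genes with a plain ratio of at least 2 between the timepoints and at least 1 FPKM at the higher one. By this rule 678 genes rose (5.44% of those compared) and 782 fell (6.28%), together 11.7%, and 10994 did neither. Counts of risen or fallen members in the gene lists below are to be read beside these shares. A single call in a list of 16 to 23 expressed genes is close to them. The shares are taken over all levels, and calls were rarer among abundant genes, as given below. The median log2 ratio of 36 h over 24 h was 0.00093 across all genes compared, and the middle 50% of genes lay between -0.27 and 0.26. A change of at least 4-fold was found for 148 genes upward and 195 downward. If each timepoint is divided by its summed FPKM, which was 720776 at 24 h and 787579 at 36 h, all log2 ratios shift by -0.13, and 542 genes rise and 950 fall. The share of rises among changed genes is then 36.3% in place of 46.4%. Gene calls that depend on this scaling are marked where they appear.

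**Figure D1:**
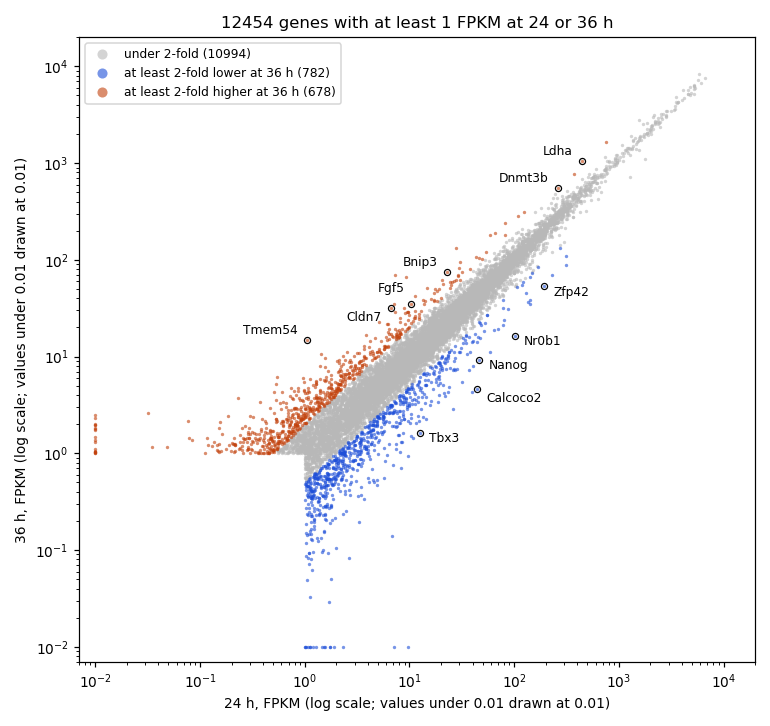
Value of each of the 12454 genes at 24 h (x axis) and 36 h (y axis), in FPKM on log axes, with genes at least 2-fold higher at 36 h in orange, at least 2-fold lower in blue and the others in grey. The 678 risen and 782 fallen genes lie on either side of a narrow grey band, and the band widens towards low values.

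Changes were most frequent among weakly expressed genes. Of the 1433 genes whose higher value lay between 1 and 2 FPKM, 33.4% differed at least 2-fold, against 5.41% of the 4473 genes between 10 and 50 FPKM and 2.65% of the 2419 genes at 50 FPKM or more. Low values rest on few fragments. A gene of 2 kb at 1 FPKM corresponds to about 32.9 of the smallest steps between low values at 24 h and 28.5 at 36 h, where a step is a rough stand-in for a fragment. Among the 6892 genes that reached 10 FPKM, 140 rose and 166 fell (4.44% together).

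The interval from 24 to 36 h had the largest share of changed genes among the 4 intervals of 12 h in the course. From 36 to 48 h 4.79% of the genes compared differed at least 2-fold, from 48 to 60 h 9.24% and from 60 to 72 h 5.24%. Among genes that reached 10 FPKM the order of the 4 intervals was kept, with 4.44%, 0.818%, 3.27% and 1.53%. By the spread of all log2 ratios the interval from 48 to 60 h came first, with an interquartile range of 0.572 and a median absolute log2 ratio of 0.283, against 0.531 and 0.266 from 24 to 36 h. Of the longer steps, the first 24 h of withdrawal changed 23.0% of genes and the last 24 h changed 10.1%. Steps that follow each other share a timepoint and are therefore not independent of each other. Depth was similar across the course, at between 28.5 and 35.7 steps for the same 2 kb gene.

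**Figure D2:**
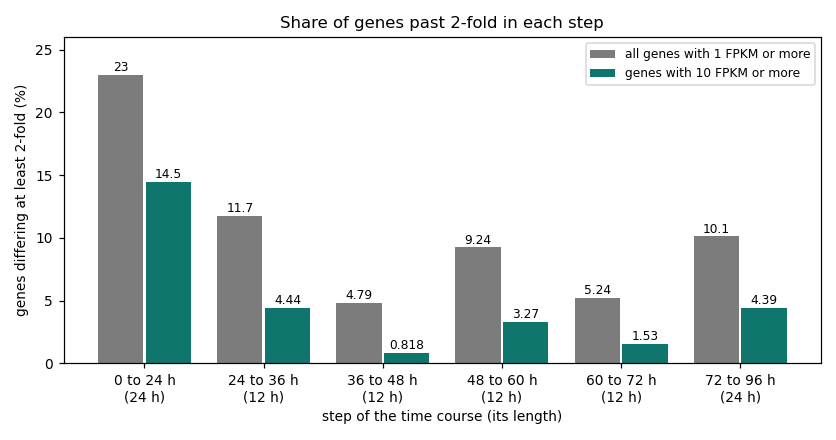
Percentage of genes that differed at least 2-fold in each step of the time course, for all genes with 1 FPKM or more at either end (grey) and for genes with 10 FPKM or more (green). The step from 24 to 36 h stands at 11.7% and 4.44%, above the 3 later steps of 12 h.

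Transcription factors of the naive state fell in the majority. All 20 genes of the naive list were expressed, 14 fell and none rose, with a median log2 ratio of -1.85 against 0.00093 for all genes compared. The orphan nuclear receptor Nr5a2, an activator of Pou5f1, went from 25.8 to 2.87 FPKM, 8.99-fold lower. Tbx3, a T-box factor that supports self-renewal, went from 12.6 to 1.64 FPKM. Prdm14, which restrains Fgf signalling and DNA methylation in naive cells, went from 1.73 to 0.192 FPKM, after 18.8 FPKM at 0 h. These were the steepest falls of the list, at between 7.71-fold and 9.01-fold. Nr0b1 (Dax1), a repressor among the nuclear receptors, had risen over the first day from 43.5 to 101 FPKM, and then stood at 16.2 FPKM at 36 h. Tcl1, a coactivator of Akt, was at 110.3, 31.99 and 5.42 FPKM at 0, 24 and 36 h. Zfp42 (Rex1), the usual marker of naive cells, was almost unchanged over the first day (201 and 192 FPKM), and its first large loss came in the interval studied here, to 53.2 FPKM.

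The Krüppel-like factors of the list moved together. Klf4 went from 23.3 to 4.32 FPKM, Klf2 from 69.5 to 19.3 FPKM and Klf5 from 39.5 to 14.1 FPKM. Without dox the Klf4 value reflects the endogenous gene and any leakage of the transgene, which the table does not separate. This limit also applies to the Pou5f1, Sox2 and Myc values below. Nanog, the homeobox factor at the centre of the naive network, went from 46.5 to 9.18 FPKM (5.07-fold lower), its lowest values of the course being those at 36 and 48 h (6.45 FPKM). Its partner Esrrb went from 45.3 to 16.1 FPKM (2.82-fold lower). Tfcp2l1, Gbx2 and Stat3 completed the falls, with log2 ratios of -2.30, -1.93 and -1.07.

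The other 6 genes of the naive list stayed within 2-fold. Dppa3 (Stella) stood at 13.6 FPKM and then 14.7 FPKM. Dppa5a was the most abundant, with 1780.2 and 1092 FPKM. Fgf4, whose product drives the exit from the naive state, had 79.1 and 63.6 FPKM. Tdh, the threonine dehydrogenase that feeds one-carbon metabolism in mouse pluripotent cells, Fbxo15 and Pecam1 had log2 ratios of -0.77, -0.68 and -0.74.

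Promoter sequences are given for 4 genes of the lists, the pair with the steepest falls and the pair with the steepest rises among list members that reached 10 FPKM and had a single promoter window in the RefSeq table. The windows are the 250 bases before the annotated start in RefSeq on GRCm38.p6, written from 5′ to 3′ on the strand of the gene. Capitals mark matches on either strand to GGGCGG (the GC box that Sp factors bind), CCAAT and TATAAA. Nr0b1 (chrX:86191525-86191774, plus strand) and Tcl1 (chr12:105222738-105222987, minus strand) fell, while Fgf5 (chr5:98253934-98254183, plus strand) and Bnip3 (chr7:138909507-138909756, minus strand) rose.
Nr0b1: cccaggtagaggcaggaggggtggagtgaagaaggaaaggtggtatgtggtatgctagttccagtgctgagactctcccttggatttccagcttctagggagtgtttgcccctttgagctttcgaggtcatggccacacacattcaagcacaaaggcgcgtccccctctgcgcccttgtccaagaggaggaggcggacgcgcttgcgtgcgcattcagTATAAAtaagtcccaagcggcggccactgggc
Tcl1: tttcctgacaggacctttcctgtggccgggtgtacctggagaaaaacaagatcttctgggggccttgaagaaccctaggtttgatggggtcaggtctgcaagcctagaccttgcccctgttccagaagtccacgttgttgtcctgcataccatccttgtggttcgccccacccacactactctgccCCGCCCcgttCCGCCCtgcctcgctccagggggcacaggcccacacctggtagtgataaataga
Fgf5: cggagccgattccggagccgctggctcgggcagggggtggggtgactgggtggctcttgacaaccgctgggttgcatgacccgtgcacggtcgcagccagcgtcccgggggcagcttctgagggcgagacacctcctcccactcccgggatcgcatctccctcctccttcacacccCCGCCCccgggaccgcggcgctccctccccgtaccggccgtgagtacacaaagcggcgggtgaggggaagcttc
Bnip3: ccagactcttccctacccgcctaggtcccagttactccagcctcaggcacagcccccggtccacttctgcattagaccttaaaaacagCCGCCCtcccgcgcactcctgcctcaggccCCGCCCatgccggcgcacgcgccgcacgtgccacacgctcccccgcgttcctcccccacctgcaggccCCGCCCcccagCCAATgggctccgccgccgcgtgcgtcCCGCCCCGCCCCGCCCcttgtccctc

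The Nr0b1 window holds 1 match to TATAAA, near its 3′ end, and neither of the other motifs. The Tcl1 window has 2 matches to GGGCGG and the Fgf5 window has 1. The Bnip3 window has 6 matches to GGGCGG, of which the last 3 overlap each other, and 1 to CCAAT. Among all 32851 promoter windows of the table, 12.4% hold TATAAA, 33.8% hold CCAAT and 32.7% hold GGGCGG. The GC content was 57.2% for Nr0b1, 57.6% for Tcl1, 70.8% for Fgf5 and 72.4% for Bnip3. A match is a run of letters and does not show that a factor binds there.

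Genes of LIF signalling fell at several levels of the pathway. Of 17 genes listed 16 were expressed, 9 fell and none rose, and the median log2 ratio was -1.05. Both receptor subunits fell, Lifr from 16.96 to 6.69 FPKM and Il6st (gp130) from 13.5 to 6.58 FPKM. Stat3, the transcription factor they activate, went from 23.7 to 11.2 FPKM. Socs3, a feedback inhibitor and direct Stat3 target, went from 19.6 to 5.32 FPKM. The further targets Bcl3 (22.1 to 7.40 FPKM) and Junb (12.4 to 5.50 FPKM) fell as well, beside Klf4, Tfcp2l1 and Gbx2. These last genes and Stat3, 4 of the 9 falls, are also on the naive list. The kinases were less affected, with log2 ratios of -0.56 for Jak1 and -0.21 for Jak2. Socs2 (53.7 and 49.8 FPKM) and Pim1 (19.4 and 22.3 FPKM) stayed near their 24 h values.

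The general pluripotency factors did not follow the naive genes. In the core list 1 of 16 genes rose, none fell and the median log2 ratio was -0.02. Pou5f1 (Oct4) stood at 279 FPKM and then 217 FPKM, Sall4 at 161 and 133 FPKM, and Utf1 at 613 and 706 FPKM. Sox2 was close to the threshold with 151 and 77.7 FPKM (1.95-fold lower), and it passes 2-fold with scaling by the summed FPKM. The same holds for Tdgf1 (Cripto), the Nodal coreceptor, with 166 and 86.9 FPKM. The gene that rose was Lin28b, an inhibitor of let-7 maturation, from 2.19 to 7.48 FPKM, while its paralog Lin28a was at 115 and 166 FPKM.

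Formative genes moved in the opposite direction to the naive ones. All 24 were expressed, 7 rose and none fell, with a median log2 ratio of 0.67. Fgf5, the classic marker of the epiblast after implantation, was at 0.164, 10.3 and 35.1 FPKM at 0, 24 and 36 h, and stayed at 37.3 FPKM at 48 h. Pim2, a serine/threonine kinase that promotes survival, rose from 82.5 to 240.1 FPKM. Pou3f1 (Oct6), a POU factor of the formative and later neural state, rose from 27.9 to 62.6 FPKM. Lef1, a nuclear partner of beta-catenin, rose from 25.4 to 59.1 FPKM and Sall2, a zinc finger factor, from 9.72 to 24.1 FPKM. These 5 genes changed by between 2.24-fold and 3.40-fold. Dnmt3b, a de novo DNA methyltransferase, rose from 259.5 to 549 FPKM and Sox3 from 9.48 to 19.1 FPKM, calls that are both lost with scaling by the summed FPKM.

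Several formative regulators were already high at 24 h and changed little. Otx2, which directs the formative programme, had 79.3 FPKM and then 111 FPKM. Etv5 had 122 and 143 FPKM, Zic2 40.4 and 53.4 FPKM, and Zfp281 39.3 and 37.96 FPKM. Rbpj, the DNA-binding partner of Notch, had the lowest log2 ratio of the list, -0.85. Most of the risen genes had come down again by 96 h, to 78.7 FPKM for Dnmt3b, 27.4 FPKM for Pim2 and 6.34 FPKM for Lef1, whereas Sall2 stood at 24.05 FPKM.

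**Figure D3:**
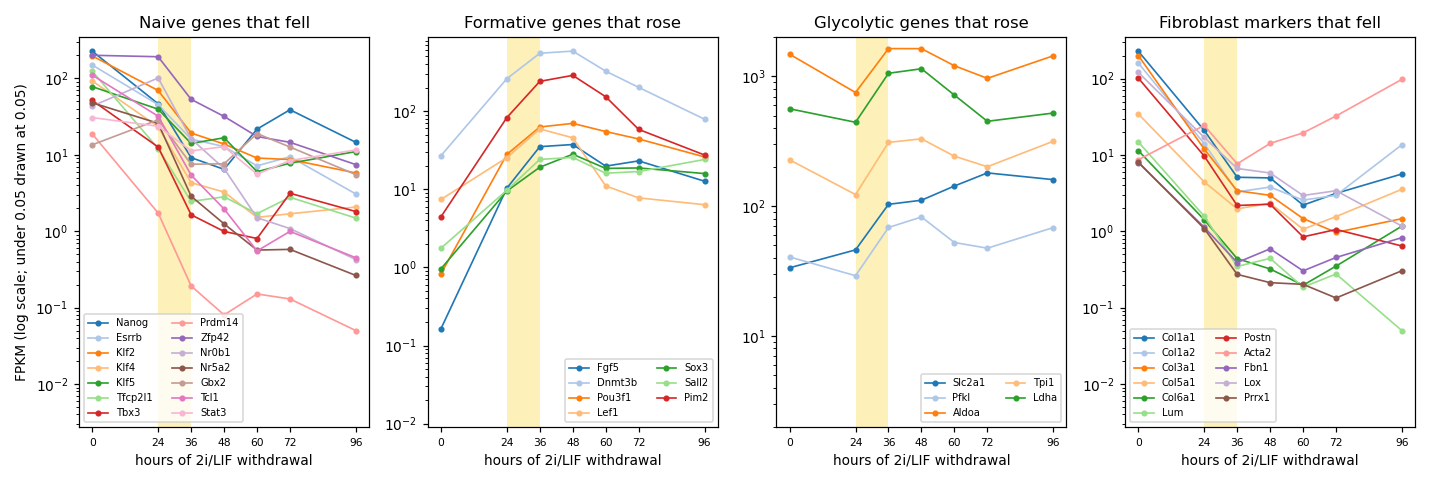
Values over the 7 timepoints, in FPKM on log axes, of the members of 4 lists that changed at least 2-fold between 24 and 36 h (yellow band): 14 naive genes, 7 formative genes, 5 glycolytic genes and 11 fibroblast markers. Within the band the naive genes and fibroblast markers drop and the formative and glycolytic genes climb; Nanog climbs again by 72 h, and Acta2 climbs from 36 to 96 h.

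Enzymes that add and remove DNA methylation changed unequally. In a list of 16 genes, all expressed, 1 rose and 2 fell, and the median log2 ratio was 0.03. Beside Dnmt3b, the second de novo enzyme Dnmt3a went from 179.7 to 340.2 FPKM (1.89-fold), short of the threshold, and their cofactor Dnmt3l from 542 to 412 FPKM. The maintenance pair Dnmt1 and Uhrf1 had log2 ratios of -0.03 and -0.18. Of the Tet dioxygenases, which oxidise methylcytosine, Tet2 fell from 8.23 to 1.32 FPKM (6.23-fold lower). Tet1 had 47.96 and 33.2 FPKM, and Tet3 had 1.82 and 3.50 FPKM. The other fall was that of Zfp57, which protects methylation at imprinted loci, from 171 to 83.5 FPKM.

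Among 23 polycomb subunits, all expressed, 1 fell and none rose, close to the 6.28% fallen among all genes compared. The median log2 ratio was -0.15, with 17 of the ratios below 0. The fall was that of Kdm2b, which recruits the variant complex PRC1.1 to CpG islands, from 120.2 to 59.02 FPKM (2.04-fold lower). The PRC2 subunits Ezh2, Eed and Suz12 had log2 ratios of -0.15, -0.63 and -0.72, and Rnf2, the ubiquitin ligase of PRC1, had -0.79.

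Fgf signalling genes changed without a common direction. Of 18 ligands, receptors and binding proteins 10 were expressed, 3 rose and 1 fell. The ligand Fgf5 and the receptor Fgfr2 (4.88 to 11.2 FPKM) rose, while the main receptor Fgfr1 stood at 22.2 and 25.5 FPKM. Fgf13, an intracellular homologue that is not secreted, rose from 1.43 to 3.70 FPKM. Fgfbp1, a carrier that releases Fgf from the matrix, fell from 17.7 to 5.87 FPKM.

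Feedback inhibitors and targets of ERK showed no common direction. Of the 17 expressed genes of this list 2 rose, 1 fell and the median log2 ratio was -0.31. The nuclear phosphatase Dusp4 rose from 16.2 to 38.9 FPKM and Spred3 from 2.61 to 6.53 FPKM. Dusp6, the cytoplasmic ERK phosphatase, stood at 29.6 and 32.1 FPKM. The Sprouty genes pointed both ways without passing the threshold, Spry1 with a log2 ratio of 0.89 and Spry2 with -0.82. Phlda1 fell from 6.79 to 2.58 FPKM.

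Genes of the Wnt pathway changed in both directions. In the Wnt list 10 of 20 genes were expressed, 2 rose and 2 fell. Notum, an extracellular enzyme that inactivates Wnt proteins, fell from 21.5 to 4.18 FPKM (5.14-fold lower). Axin2, the standard readout of beta-catenin activity, was at 23.7, 5.003 and 2.39 FPKM at 0, 24 and 36 h. Nkd2, an antagonist of Dishevelled, rose at a low level, from 0.240 to 1.14 FPKM, beside Lef1. Tcf7 had 19.99 and 34.9 FPKM, and Tcf7l1, the repressor that 2i relieves, 63.6 and 61.3 FPKM.

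In the Nodal list 15 of 17 genes were expressed, 3 fell and none rose, with a median log2 ratio of -0.11. The ligand Nodal fell from 19.1 to 8.71 FPKM. Lefty2, an antagonist induced by Nodal, fell from 11.97 to 5.19 FPKM and Pcsk6 (Pace4), a convertase that processes the Nodal precursor, from 10.6 to 5.25 FPKM. Lefty1 did not share this, with 9.40 and 12.6 FPKM. Receptors and transducers stayed within 2-fold, among them Acvr1b (log2 ratio 0.04), Smad2 (-0.54) and Foxh1 (0.31).

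BMP genes fell in part. Of 20 genes 13 were expressed, 3 fell and none rose, and the median log2 ratio was -0.54. The ligand Bmp4 fell from 6.11 to 3.04 FPKM, the target Id1 from 16.2 to 3.51 FPKM (4.62-fold lower) and the inhibitory Smad6 from 2.30 to 0.752 FPKM. Id3, another BMP target and inhibitor of basic helix-loop-helix factors, stood at 29.5 FPKM and then 40.9 FPKM, so that Id1 and Id3 differed in direction. Id4 had 1.03 and 0.537 FPKM and passes the threshold downward with scaling by the summed FPKM.

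Notch ligands and a Hes gene rose. Of 20 genes 12 were expressed, 4 rose and none fell. Dll3, a ligand that inhibits Notch in the same cell, rose from 12.95 to 29.4 FPKM and Jag2 from 1.78 to 4.30 FPKM. Hes6, an inhibitor of Hes1, rose from 28.9 to 70.2 FPKM, while Hes1 itself had 13.7 and 9.88 FPKM. Mfng, a glycosyltransferase that modifies Notch, rose from 1.70 to 3.43 FPKM, a call lost with scaling by the summed FPKM. The receptors Notch1, Notch2 and Notch3 had log2 ratios of -0.12, 0.63 and 0.42.

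In the retinoic acid list 10 of 18 genes were expressed and 2 rose. Crabp2, which carries retinoic acid to its nuclear receptor, rose from 43.3 to 108 FPKM, and the receptor Rxrg rose at a low level, from 0.339 to 1.38 FPKM. The main receptors Rarg and Rara had log2 ratios of -0.25 and -0.35, and the retinoic acid oxidase Cyp26a1 was at 0.114 and 0.251 FPKM, under the minimum.

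**Figure D4:**
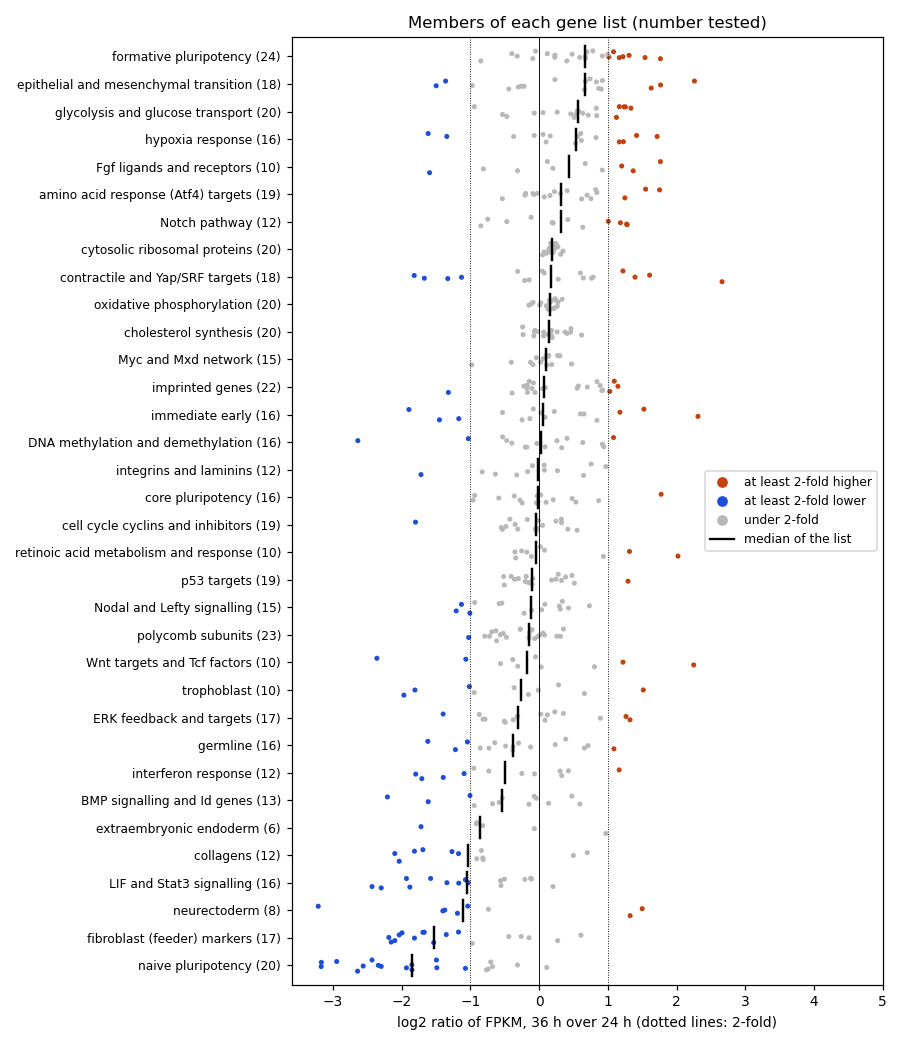
Log2 ratio of the 36 h to the 24 h value for each expressed member of the lists with at least 6 expressed members, sorted by the median (black bar), with members at least 2-fold higher in orange, at least 2-fold lower in blue and the others in grey. The naive list has the lowest median (-1.85) and the formative list the highest (0.67), with ribosomal, oxidative phosphorylation and cholesterol genes in narrow clusters just above 0.

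Some claudin genes of epithelial tight junctions rose. The list of genes of epithelial and mesenchymal transition had 18 of 20 genes expressed, of which 3 rose and 2 fell, with a median log2 ratio of 0.67. It mixes epithelial and mesenchymal genes, with 11 ratios above 0 and 7 below, so the median describes neither group. The risen genes were all claudins, the proteins that form the strands of tight junctions. Cldn7 rose from 6.69 to 32.03 FPKM (4.79-fold), Cldn6 from 30.7 to 94.99 FPKM and Cldn3 from 2.69 to 9.16 FPKM. The adhesion genes Cdh1 (E-cadherin) and Epcam were higher by less than 2-fold, with 95.1 and 159 FPKM and with 83.7 and 153 FPKM. The splicing regulator Esrp1 and the transcription factor Grhl2, both epithelial, had log2 ratios of 0.92 and 0.67. The mesenchymal repressors Zeb1 and Snai2 fell, from 4.33 to 1.53 FPKM and from 2.64 to 1.03 FPKM. Vim, the mesenchymal intermediate filament, had 299 and 152 FPKM and passes 2-fold downward with scaling by the summed FPKM. Fibroblast markers, described below, fell over the same 12 h (11 of 17, median log2 ratio -1.53), and their part in the values of these mesenchymal genes was not tested.

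Further epithelial genes were among the rises above 10 FPKM. Prss8 and Hpn, membrane-anchored serine proteases of epithelia, were among the 15 largest, from 5.10 to 22.7 FPKM and from 3.88 to 16.7 FPKM. Krt18, a keratin of simple epithelia, rose from 13.6 to 38.8 FPKM, while its usual partner Krt8 had 10.2 and 9.18 FPKM. Outside the rule for naming genes, and chosen after their values were seen, were the polarity gene Crb3 (9.12 to 28.1 FPKM), the junction genes Cgn (4.24 to 11.2 FPKM) and Lsr (14.1 to 37.2 FPKM) and the vesicle GTPase Rab25 (4.24 to 14.4 FPKM).

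Contractile genes and targets of Yap and SRF divided. Of 18 expressed genes 4 rose and 4 fell. The risen genes regulate actomyosin in smooth muscle and other cells: Myl9, a myosin light chain, rose from 9.38 to 28.6 FPKM, Cnn2 from 17.3 to 45.4 FPKM, Tpm2 from 11.2 to 26.2 FPKM and Cnn1 from 0.466 to 2.95 FPKM. All 4 were higher still at 48 h. The fallen genes were the smooth muscle actins Acta2 (24.4 to 7.66 FPKM) and Actg2 (1.06 to 0.302 FPKM) and the matrix genes Ctgf (20.1 to 8.003 FPKM) and Thbs1 (18.7 to 8.55 FPKM). Acta2 is also on the list of fibroblast markers described below, 11 of which fell. Cyr61, like Ctgf a standard Yap target, had 12.7 and 10.3 FPKM, and Amotl2 had 45.2 and 47.5 FPKM.

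Glycolytic genes rose in part, and most of the others were higher by less than 2-fold. All 20 genes of the list were expressed, 5 rose and none fell, 16 ratios lay above 0, the median log2 ratio was 0.57 and the summed value of the list went from 4910 to 8248 FPKM. Slc2a1 (Glut1), the basal glucose transporter, rose from 46.05 to 103 FPKM. Pfkl, a subunit of phosphofructokinase, rose from 29.1 to 68.5 FPKM and Tpi1, which interconverts the triose phosphates, from 123 to 310.2 FPKM. Ldha, which reduces pyruvate to lactate, rose from 444 to 1059 FPKM (2.39-fold). Aldoa, the aldolase, rose from 752 to 1641 FPKM, a call that scaling by the summed FPKM removes. Tpi1, Aldoa and Ldha had been higher at 0 h than at 24 h, with 228, 1485 and 564 FPKM.

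Isoforms of the same step differed. Beside Pfkl, Pfkm had 39.3 and 40.9 FPKM and Pfkp had 57.7 and 39.9 FPKM. Slc2a3 (Glut3), the transporter with higher affinity, had 47.9 FPKM and then 24.9 FPKM against 338 FPKM at 0 h, and its ratio passes 2-fold downward with scaling by the summed FPKM. The hexokinases Hk1 and Hk2 had log2 ratios of -0.47 and -0.07. Most other enzymes of the pathway lay between these, among them Gapdh (0.51), Pgk1 (0.84), Pkm (0.64) and the lactate exporter Slc16a3 (0.83).

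The hypoxia list, which shares Slc2a1, Hk2 and Pdk1 with the glycolytic list, had 16 of 18 genes expressed, with 4 risen, 2 fallen and a median log2 ratio of 0.54. Bnip3, a mitophagy receptor, rose from 22.9 to 75.2 FPKM (3.29-fold) and Ddit4 (Redd1), an inhibitor of mTORC1, from 21.1 to 56.4 FPKM. Egln3, a prolyl hydroxylase that marks Hif1a for degradation, rose from 3.25 to 7.61 FPKM. The demethylase Kdm3a fell from 34.96 to 13.8 FPKM and Ndrg1 from 4.97 to 1.62 FPKM, although both are known hypoxia targets. Vegfa had 5.78 and 8.34 FPKM. The hypoxia genes therefore did not move in 1 direction.

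In the list of Atf4 targets, genes of amino acid supply, 19 of 20 were expressed and 3 rose, with a median log2 ratio of 0.31. Phgdh, the first enzyme of serine synthesis, rose from 31.8 to 75.6 FPKM. The next enzymes of serine synthesis, Psat1 and Psph, had log2 ratios of 0.82 and 0.62. Cebpb rose from 1.80 to 5.26 FPKM and the lipoprotein receptor Vldlr from 0.301 to 1.02 FPKM, the latter a call lost with scaling by the summed FPKM. Atf4 itself was at 128 and 134 FPKM and Asns, the asparagine synthetase, at 144 and 126 FPKM.

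Housekeeping lists stayed flat. None of the 20 cholesterol synthesis genes, 20 oxidative phosphorylation subunits and 20 cytosolic ribosomal protein genes passed 2-fold, with median log2 ratios of 0.15, 0.16 and 0.18. Among all genes compared 11.7% did, but only 5.41% of those between 10 and 50 FPKM and 2.65% of those at 50 FPKM or more. For lists of abundant genes these lower shares are the nearer comparison, and few or no calls in 20 genes are close to them. All 20 ribosomal protein genes had ratios above 0, between 0.05 for Rps6 and 0.35 for Rplp1. With scaling by the summed FPKM these medians come down to 0.018, 0.028 and 0.056, and 16 of the 20 ribosomal protein genes keep a ratio above 0. Ribosomal protein genes have many near-identical pseudogenes, and single values are uncertain for this reason. Of 19 expressed cyclins and cell cycle inhibitors 1 fell, the cyclin Ccnd2 (2.25 to 0.648 FPKM). Cdkn1a (p21) had 24.9 and 31.2 FPKM and the proliferation marker Mki67 had 31.5 and 30.5 FPKM. Of 19 expressed p53 targets 1 rose, Pmaip1 (Noxa), a pro-apoptotic BH3 protein, from 24.3 to 59.5 FPKM. Among all genes compared 5.44% rose, a share close to that of the p53 targets.

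In the Myc network none of 15 expressed genes passed 2-fold. Myc had 40.7 FPKM and then 20.6 FPKM (1.97-fold lower), which passes with scaling by the summed FPKM, while Mycn held 94.4 and 91.8 FPKM. Immediate early genes moved in both directions, with 3 of 16 risen and 3 fallen. Egr1, an early target of ERK, fell from 11.2 to 4.09 FPKM and Fos from 5.07 to 1.36 FPKM, beside Junb. Jun, its partner in AP-1, rose from 1.46 to 3.30 FPKM, as did Atf3 (0.291 to 1.45 FPKM) and Ier5 (2.52 to 7.26 FPKM).

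Markers of fibroblasts, the cell type of the feeders, fell over the same 12 h. Of the 20 genes of this list 17 were expressed, 11 fell and none rose, and the median log2 ratio was -1.53. The summed value of the list went from 514.7 to 281.1 FPKM, and no member was listed at 0 at either timepoint. The fibrillar collagen gene Col1a1 went from 20.96 to 5.11 FPKM, Col1a2 from 14.1 to 3.28 FPKM and Col3a1 from 11.96 to 3.40 FPKM. Postn, a matricellular protein, went from 9.69 to 2.18 FPKM and Lox, which crosslinks collagen, from 16.98 to 6.65 FPKM. Lum, Fbn1 and Prrx1 were low at 24 h, at 1.58, 1.13 and 1.09 FPKM, and fell to 0.346, 0.390 and 0.273 FPKM. Thy1 (8.10 and 12.3 FPKM) and Dcn (5.30 and 6.39 FPKM), also on the list, did not share the fall. In RNA from a whole culture, fewer cells of a type and less RNA per cell cannot be told apart. The part of fibroblast RNA in the falls of matrix, contractile and cytokine genes given here was not tested.

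Of 12 expressed collagen genes 6 fell, the fibrillar Col1a1, Col1a2, Col3a1, Col5a1 and Col5a2 and the filament-forming Col6a1, and none rose. All but Col5a2 are also on the fibroblast list. The basement membrane collagens Col4a1 and Col4a2 had log2 ratios of -0.82 and -0.91, the latter past the threshold with scaling by the summed FPKM, and Col18a1 went from 50.5 to 71.4 FPKM. Among integrins and laminins 1 of 12 fell, Lama1, from 3.72 to 1.13 FPKM, while the laminin chains Lamb1 and Lama5 had log2 ratios of 0.97 and 0.76.

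Interferon response genes were mostly low, with 12 of 20 expressed, 4 fallen and 1 risen. Among the falls, Oas1a, an antiviral oligoadenylate synthetase, went from 4.32 to 1.24 FPKM, Irf9 from 4.20 to 1.97 FPKM and Isg15 from 1.16 to 0.356 FPKM. Bst2 (tetherin) went the other way, from 53.9 to 121 FPKM. The transmembrane protein genes Ifitm1, Ifitm2 and Ifitm3 were by far the most abundant, and Ifitm3 had 272 and 141 FPKM, a ratio that passes downward with scaling by the summed FPKM.

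Of the 15 largest falls 2 were those of chemokines. Ccl2 (MCP-1), which attracts monocytes, fell from 18.7 to 3.40 FPKM and Cxcl5, which attracts neutrophils, from 12.4 to 2.16 FPKM. Outside the naming rule and chosen after their values were seen, Ccl7 went from 10.1 to 2.08 FPKM, the acute phase gene Saa3 from 140.2 to 38.1 FPKM, the secreted phosphoprotein Spp1 from 313 to 108 FPKM and the calcium-binding S100a6 from 140.4 to 34.6 FPKM. Cytokine genes that rose, chosen in the same way, were Cxcl12 (2.21 to 8.03 FPKM), Clcf1 (0.389 to 2.25 FPKM) and Il23a (0.621 to 1.93 FPKM).

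Most primitive streak genes and most neurectoderm genes stayed below 1 FPKM. Of 20 primitive streak and mesendoderm genes 2 reached 1 FPKM, Eomes (1.18 and 1.44 FPKM) and Snai1 (3.0 and 2.43 FPKM), and neither passed 2-fold. T (brachyury) and Mixl1 stayed at or under 0.122 FPKM. In the neurectoderm list 8 of 20 were expressed, 2 rose and 5 fell. Nes (nestin) rose from 3.83 to 9.60 FPKM and Msi1 (Musashi), an RNA-binding protein of neural progenitors, from 2.21 to 6.24 FPKM. The transcription factors Sox21, Pax6, Sox1 and En2 fell, Sox21 from 4.86 to 0.524 FPKM and the other three from values of at most 2.08 FPKM. The neuronal tubulin Tubb3 fell from 34.4 to 16.8 FPKM.

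Of 6 expressed genes of extraembryonic endoderm Lama1 fell, while the transcription factors Gata4, Gata6 and Sox17 stayed under 1 FPKM. Sparc, abundant in this lineage and in fibroblasts, had 228 and 121 FPKM and passes downward with scaling by the summed FPKM. In the trophoblast list 10 of 16 were expressed. Krt18 was the gene that rose. Tfap2a (2.64 to 0.755 FPKM), Gata3 (1.46 to 0.372 FPKM) and Esx1 (1.12 to 0.556 FPKM) fell. Plet1 had 17.3 and 8.97 FPKM and also passes downward with that scaling. Eif1a was expressed among the 14 measured genes of the two-cell-like list, and none of the 19 Hox genes in the table reached 1 FPKM at either timepoint.

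Of 16 expressed germline genes 3 fell and 1 rose. Dazl, an RNA-binding protein of germ cells that naive cells also express, fell from 47.3 to 15.4 FPKM (3.07-fold lower), and Asz1 fell from 1.07 to 0.460 FPKM. Tuba3b fell from 4.92 to 2.39 FPKM, a value that is uncertain because Tuba3a (54.9 and 30.3 FPKM) is nearly identical to it. Sycp3, a component of the synaptonemal complex, rose from 3.15 to 6.70 FPKM, a call lost with scaling by the summed FPKM.

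Of 22 expressed imprinted genes 3 rose and 1 fell. Meg3, the maternally expressed noncoding RNA of the Dlk1-Dio3 locus, rose from 80.96 to 179 FPKM. Its neighbours Rian and Mirg had log2 ratios of 0.89 and 0.92, close below the threshold, and Rtl1, which is transcribed from the opposite strand of the same region, had 0.84. Whether strand was used in counting is not given in the sources used here, so reads of the 2 strands cannot be told apart. Nnat rose from 8.999 to 18.3 FPKM and Phlda2 from 10.3 to 22 FPKM, calls that are both lost with scaling by the summed FPKM. Plagl1 (Zac1), a zinc finger factor, fell from 4.44 to 1.78 FPKM. H19 had 20.6 and 33.4 FPKM and Igf2 2.75 and 2.43 FPKM.

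The largest rise among genes that reached 10 FPKM was that of Tmem54, a small transmembrane protein gene on chromosome 4 of mm10 (129105548 to 129111626), which stood at 0.426, 1.06 and 14.7 FPKM at 0, 24 and 36 h (13.9-fold). Car4, a carbonic anhydrase anchored at the cell surface, rose from 9.19 to 66.9 FPKM (7.28-fold). Ramp2, a coreceptor for adrenomedullin, rose from 2.53 to 11.2 FPKM, Stk39, a kinase that regulates ion cotransporters, from 2.32 to 10.2 FPKM, and the potassium channel Kcnk1 from 8.96 to 31.9 FPKM. The signalling adaptor Grb7 (6.05 to 21.6 FPKM) closed the 15 largest rises, which also held Psors1c2, Cldn7, Prss8, Hpn, Trp53i11 and 1110007C09Rik.

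The remaining 3 of the 15 largest rises, Gm26870, Gm10801 and Gm10800, are uncertain, because their transcripts share between 6.62% and 29.3% of their 31-base words with each other and their reads cannot be assigned safely. Gm26870 went from 7.21 to 69.3 FPKM and back to 4.44 FPKM at 60 h, and it was also the largest fall from 48 to 60 h.

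Calcoco2 (Ndp52), a receptor for selective autophagy on chromosome 11 (96099326 to 96111964), had the largest fall, from 44.2 to 4.57 FPKM (9.67-fold lower). Jam2, a junctional adhesion molecule on chromosome 16 (84774123 to 84825928), followed with 39.96 and 4.30 FPKM. Nr5a2, Tbx3, Nr0b1, Tcl1 and Klf4 of the naive list were also among the 15 largest falls. The receptors Epha4 (10.9 to 1.45 FPKM) and Ngfr (10.3 to 1.52 FPKM), the homeobox gene Meis2 (13.5 to 2.35 FPKM) and the basement membrane gene Nid1 (21.9 to 3.90 FPKM) fell between 5.61-fold and 7.48-fold. Aard, Lrrc34, Cxcl5 and Ccl2 complete the group.

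**Figure D5:**
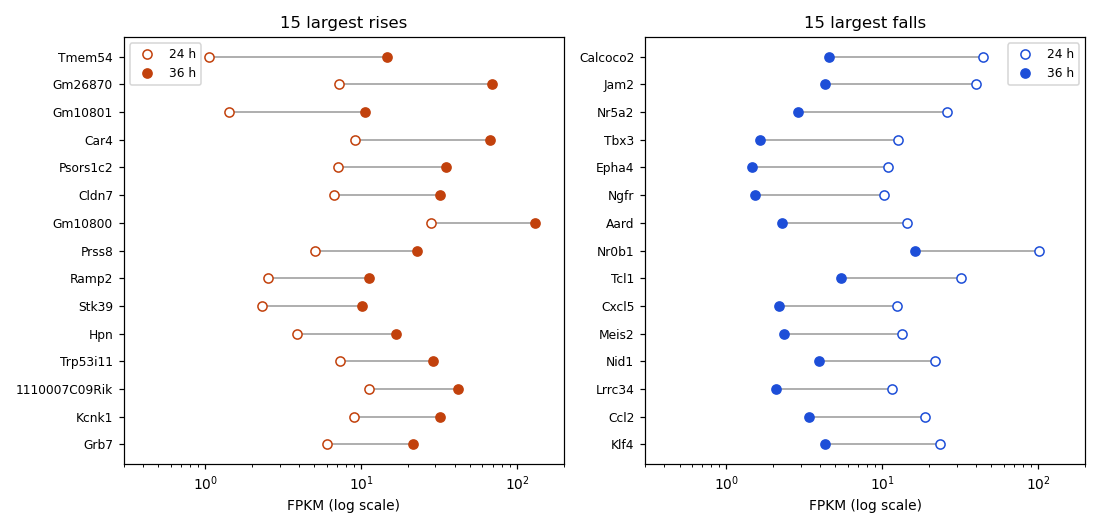
Values at 24 h (open circles) and 36 h (filled circles), in FPKM on a log axis, of the 15 genes with the largest rises and the 15 with the largest falls among genes that reached 10 FPKM. Tmem54 spans the widest distance on the left and Calcoco2 on the right; Nr0b1 falls from the highest starting value, 101 FPKM.

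At the threshold the ratios were nearly equal on both sides. Efs lay just inside for rises, with 7.76 and 15.6 FPKM (2.005-fold), and Ccdc64 just outside, with 9.83 and 19.6 FPKM. For falls Mfge8 lay just inside, with 45.9 and 22.9 FPKM, and RP23-152O2.3 just outside, with 10.4 and 5.19 FPKM. With scaling by the summed FPKM Efs leaves the rises and RP23-152O2.3 joins the falls.

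Gene types are given as shares, without a test. Of the genes found in Gencode M21, 94.1% of those compared, 85.5% of the risen and 85.1% of the fallen were protein coding. Among genes that reached 10 FPKM the shares were 97.8% of all, 92.6% of the risen and 96.2% of the fallen. The X chromosome held 3.58% of the genes compared, 4.94% of the risen and 3.78% of the fallen.

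The levels of these genes were followed through the timepoints that the comparison did not use. Among genes that reached 10 FPKM, the 0 h median was 7.67 FPKM for the 140 risen and 26.3 FPKM for the 166 fallen. Of the risen genes 62 were lower at 24 h than at 0 h. Of the fallen genes 88 were at or above their 0 h value at 24 h. At 24 h 82 of them were highest, against 1606 of all 6892 genes that reached 10 FPKM. A fallen gene cannot be highest at 36 h, so the 82 are shaped by how the genes were chosen. For the 62 and the 88 the step from 24 to 36 h did not continue the direction of the first day. The 140 genes that rose and reached 10 FPKM had medians of 8.40, 22.3, 25.5, 27.4, 28.1 and 30.1 FPKM at 24, 36, 48, 60, 72 and 96 h. At 96 h 81 of them were at or above their 36 h value, and 22 had returned to their 24 h value or below it. The 166 genes that fell had medians of 20.6, 7.46, 6.39, 4.86, 5.08 and 5.36 FPKM at the same times. Of these, 26 were again at least 2-fold higher at 60, 72 or 96 h than at 36 h, and 14 had reached or passed their 24 h value at 96 h. The 24 and 36 h medians follow from how the genes were chosen. Counts that set a gene against its 24 or 36 h value are also shaped by that choice. Apart from the genes highest at 24 h, the share over all genes that reached 10 FPKM was not computed. Persistence or return therefore cannot be read from those counts.

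The genes with the largest changes in the other 12 h intervals had no common direction in this one. Tagln, which rose most from 36 to 48 h, had 4.98 and 4.50 FPKM. Slc2a3, which passes 2-fold downward in this interval with scaling by the summed FPKM as described above, rose most from 48 to 60 h and Hist1h4j from 60 to 72 h, the latter with a log2 ratio of -0.20 from 24 to 36 h. Gm12690, which fell most from 36 to 48 h, had already fallen from 23.4 to 10.3 FPKM, and Gm26870, which fell most from 48 to 60 h, had risen from 7.21 to 69.3 FPKM. Tex14, which fell most from 60 to 72 h, had 20.9 and 23.7 FPKM.

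Values from samples that the comparison did not use come from cells taken at 24 or 48 h and re-seeded for 48 h in serum/LIF without dox. They bracket a longer interval, 24 h, and were measured after a return to LIF. In the colony-forming assay the methods re-seed cells onto feeders, and the surface used for these RNA samples is not given. The part of feeder RNA in these values was not tested. Between these conditions, 7.64% of the genes with at least 1 FPKM passed 2-fold upward from the 24 h to the 48 h cells and 7.49% downward. For genes that reached 10 FPKM in the time course comparison the shares were 3.19% upward and 4.66% downward. Of the 162 fallen genes at 10 FPKM or more in the time course comparison that reached 1 FPKM in 1 of these conditions, 49 were lower (30.2%) and 16 were higher (9.88%), with a median log2 ratio of -0.48. Over fallen genes of any level the balance was closer, with 117 of 503 lower (23.3%) and 97 higher (19.3%). Of the 140 risen genes at that level 16 were higher (11.4%) and 17 lower (12.1%), with a median log2 ratio of 0.11. Zfp42 stood at 62.9 FPKM in the cells from 24 h and 18.1 FPKM in those from 48 h, Nanog at 50.1 and 32.9 FPKM and Klf4 at 10.4 and 4.68 FPKM. Fgf5 stood at 3.59 and 17.2 FPKM, Cldn7 at 80.5 and 192 FPKM and Tmem54 at 13.1 and 12.99 FPKM.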

How the data were processed

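RNA-seq of polyadenylated RNA was measured in 30 samples, 2 for each of 15 conditions, of which 24 h and 36 h of withdrawal are compared here. According to the methods and the submitters' processing notes, the authors mapped reads to mm10 with TopHat2 2.0.14 and quantified Gencode M4 transcripts with Cufflinks 2.2.1 and Cuffdiff. The deposited table holds FPKM values, 1 per gene and condition with both replicates combined, and is named RPKM by the submitters. The library normalization is not given in the sources used here. The table gives no counts or replicate values, so depth is known only as rough steps between low values of 1380 genes with a single transcript, and no test, spread or interval could be computed. Another 5 columns of the authors' calls (dynamic groups and responses to dox) were not used.

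Plain ratios of 36 h over 24 h were computed with Python 3.11.15, numpy 2.4.6 and pandas 2.3.3 and plotted with matplotlib 3.10.9. A gene was compared where its higher value reached 1 FPKM and called at a ratio of at least 2, without pseudocount. The counting was tested on simulated data. Genes at 0 in either condition had no log2 ratio and were left out of medians. Named genes are the 15 largest rises and falls that reach 10 FPKM, the members of 37 lists (650 genes), the genes next to the threshold and the largest change of each 12 h step. The lists were written from general knowledge, and members and lists were chosen with earlier results of these data known. Positions are from Gencode M21 on GRCm38, the assembly of mm10, in which 94.9% of symbols were found, and promoters from RefSeq on GRCm38.p6, in which 15198 symbols had a window. Alternatives were tried for the minimum, the pseudocount, the fold and the scaling. The other assays of the study were not used here. The values of 1 list member are not reported here.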

Additional observations from a re-analysis of the deposited data

How the results depend on the processing

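Counts of risen and fallen genes moved with the thresholds as follows. Without a minimum 1648 genes rose and 1590 fell, and with 1 FPKM required at both timepoints 361 and 405 did. A minimum of 5 FPKM gave 246 and 286, and one of 10 FPKM gave 140 and 166. A pseudocount of 1 FPKM gave 307 and 373. A fold of 1.5 gave 1460 and 1491, and a fold of 3 gave 259 and 372. The counts stayed within 1.5 times those reported with a pseudocount of 0.1 FPKM (637 and 732), with median ratio scaling (663 and 793) and with scaling by the summed FPKM (542 and 950). The median log2 ratio was 0.0127 without a minimum, 0.0139 with a minimum of 10 FPKM, -0.0120 with median ratio scaling and -0.13 with scaling by the summed FPKM. Rises outnumbered falls only without a minimum. No named gene past 2-fold changed sign under the scalings, and a pseudocount added to both values cannot reverse a sign. Of 634 named genes with a log2 ratio at any level, 83 crossed the 2-fold line with a pseudocount of 1 FPKM. With 0.1 FPKM 28 did. Genes called at low values, among them Lum, Fbn1, Prrx1, Nkd2 and Rxrg, lose the call with a pseudocount of 1 FPKM, which is not marked where they appear. With scaling by the summed FPKM 42 of the 491 list members with a ratio changed sign, none of them past 2-fold, and so did the medians of 4 lists, to -0.10 for DNA methylation, -0.07 for immediate early genes, -0.06 for imprinted genes and -0.02 for the Myc network. With the same scaling, 9 of the 146 named genes past 2-fold lose the call and 11 others gain it, and the counts of risen or fallen members stayed within 1.5 times in 67 of 74 cases. A fold of 3 kept 42 of the 74 within 1.5 times and a pseudocount of 1 FPKM kept 58.

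No paired analysis was possible because the table gives both replicates of a condition as 1 value. For the same reason no replicate was left out in turn. Depth limits the calls at low values most, where a single step is a larger share of the value.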

Other observations

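The table lists 27 genes under names that read as calendar dates, as spreadsheets write some gene symbols. Of these, 19 reached 1 FPKM at 24 or 36 h and 2 passed 2-fold. They are counted among the genes compared but are not named, since the symbol behind a date is not certain. A further 34 calls rest on a value listed at 0, with 17 genes at 0 at 24 h and 17 at 36 h, and none of these has a log2 ratio.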
